A study of Mus musculus with 10 samples.

Results

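The genes described here are 50 listed genes of DNA replication and mitosis, chosen by name and grouped by role: the cyclins and kinases of mitotic entry, the proteins that license and unwind origins, the replication fork, deoxynucleotide synthesis, the spindle checkpoint, the centromere, the spindle, cytokinesis and general markers of cycling cells. Of these, 47 had a probe set named for them alone, among 12366 genes measured, and Ccnb1, Bub1b and Foxm1 were not analysed here. Each gene is represented by its probe set with the highest mean over all arrays. RNA from whole livers of 10 mice was measured on Affymetrix arrays, 1 array per liver, with 5 control mice and 5 mice of the genotype DicerloxP/loxP;Afp-Cre+. The mutant mice carried floxed alleles of Dicer1, the gene of the enzyme that cuts microRNA precursors, and a Cre recombinase driven by Afp, a gene active in fetal hepatocyte precursors. All animals were 28 days old and had been fasted for 5 hours, and the labels give their strain as mixed. The labels do not state which alleles the control mice carried, nor the sex or litter of any animal. Whole liver also holds Kupffer, stellate, endothelial and blood cells, in which an Afp-driven Cre is not known to act.

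Dividing cells copy their DNA once per cycle. The Mcm proteins are loaded onto origins with the help of Cdc6 and Cdt1, primase and polymerases start new strands, Pcna clamps the polymerases to the template, and ribonucleotide reductase supplies the nucleotides. In mitosis, Cdk1 with cyclin A or B starts chromosome condensation, the spindle checkpoint delays separation until every chromosome is attached, and Cdc20 then starts the destruction of cyclin and securin. Replication genes are commonly driven by E2F factors in late G1 and S phase. Mitotic genes are commonly held silent until G2 by the DREAM complex, which binds a short element called CHR next to CCAAT boxes. Hepatocytes divide in the weeks after birth and become largely quiescent in the adult.

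The arrays matched their labels at Dicer1, where the mutant livers fell by 1.03 on 1 probe set and fell by 2.31 on the other (log2 scale). Array medians lay between 6.41 and 6.68 log2 units. The hepatocyte markers, of which 0 of 9 were called, had a mean level of 14.0 to 14.4 in the control livers and 14.1 to 14.4 in the mutant livers. Marker counts of other cells are read against all genes measured, of which 8.62% were called higher and 11.5% lower. For Kupffer cells and macrophages, 8 of 12 genes were higher in the mutant livers, with a list mean of 8.93 to 9.96 in controls and 9.92 to 10.48 in mutants. For stellate cells and fibroblasts 6 of 10 were higher, with list means of 9.22 to 9.55 and 9.71 to 10.22. For endothelium 2 of 11 were called lower, a count that is not read as a difference of the cell type. All 11 had a negative difference, with a median of -0.16 and list means of 8.74 to 9.16 and 8.55 to 8.80. Precursors of red cells, which divide in young livers, had 0 of 7 markers called and list means of 5.05 to 5.56 and 4.73 to 5.39, with Gata1, Rhag and Epor below 3.60, the 25th percentile of all values. The other 4 were above it, with differences of -0.53 for Alas2, -1.02 for Klf1, -0.44 for Slc4a1 and -0.08 for Tfrc. Of the neutrophil markers 1 of 6 was called, Lcn2, at 3.89, a count that is not read as a difference of the cell type. List means were 5.10 to 6.45 in controls and 6.43 to 7.76 in mutants. These means include Lcn2, which had the largest difference on the list. S100a8 and S100a9 differed by 1.18 (adjusted p = 0.155) and 1.24 (adjusted p = 0.131), Ngp by 0.19, and Mpo and Prtn3 were below 3.60. The part of these cells in the values of the dividing-cell genes was not tested. In whole tissue, fewer cells of a type and less RNA per cell cannot be told apart.

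Of the 47 genes, 46 did not pass the test between mutant and control livers. The gene that did, Prim1, the catalytic subunit of primase, was lower in the mutant livers, and 0 genes were higher. Over all genes measured, 11.5% were called lower and 8.62% higher at an adjusted p under 0.05 in limma. At an unadjusted p under 0.05 in limma, 2 of the 47 passed, Prim1 and Rrm2. The share of all genes at that level is not given here, but it includes every gene called after adjustment. No member had groups that did not overlap, against 6.99% of all genes in the lower direction and 6.17% in the higher. The difference was negative for 31 members and positive for 16, with a median of -0.15 against -0.01 over all genes, and it ran from -0.88 for Aurka to 0.50 for Cdt1. The median size of the difference without regard to sign was 0.19 log2 units for the members and 0.20 for all genes.

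The livers of 1 group differed from each other more in these genes than in most. The median SD within a group was 0.44 log2 units over the members and 0.20 over all genes. Among the controls it was 0.44 against 0.16, and among the mutants 0.41 against 0.20. The SD was larger in controls than in mutants for 29 of the 47 members, against 38.6% of all genes. The spread set how small a difference could be seen. For 25 members the 95% interval of the difference lay within 1 log2 unit of 0 on both sides. These 25 include Chek1, Cdc6, Tyms and Cenpe, whose mean over all arrays was below 3.60. For such dim genes a narrow interval does not show that the groups were alike. For 19 members the interval reached -1 or beyond, down to -2.12 for Aurka, and for 8 it reached 1 or beyond, up to 1.94 for Ccnb2. Those 19 include Prim1, which was called. For the others among them a decrease of 1 log2 unit in the mutant livers was within the error. Their lack of a call does not show that the groups were alike.

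**Figure D1:**
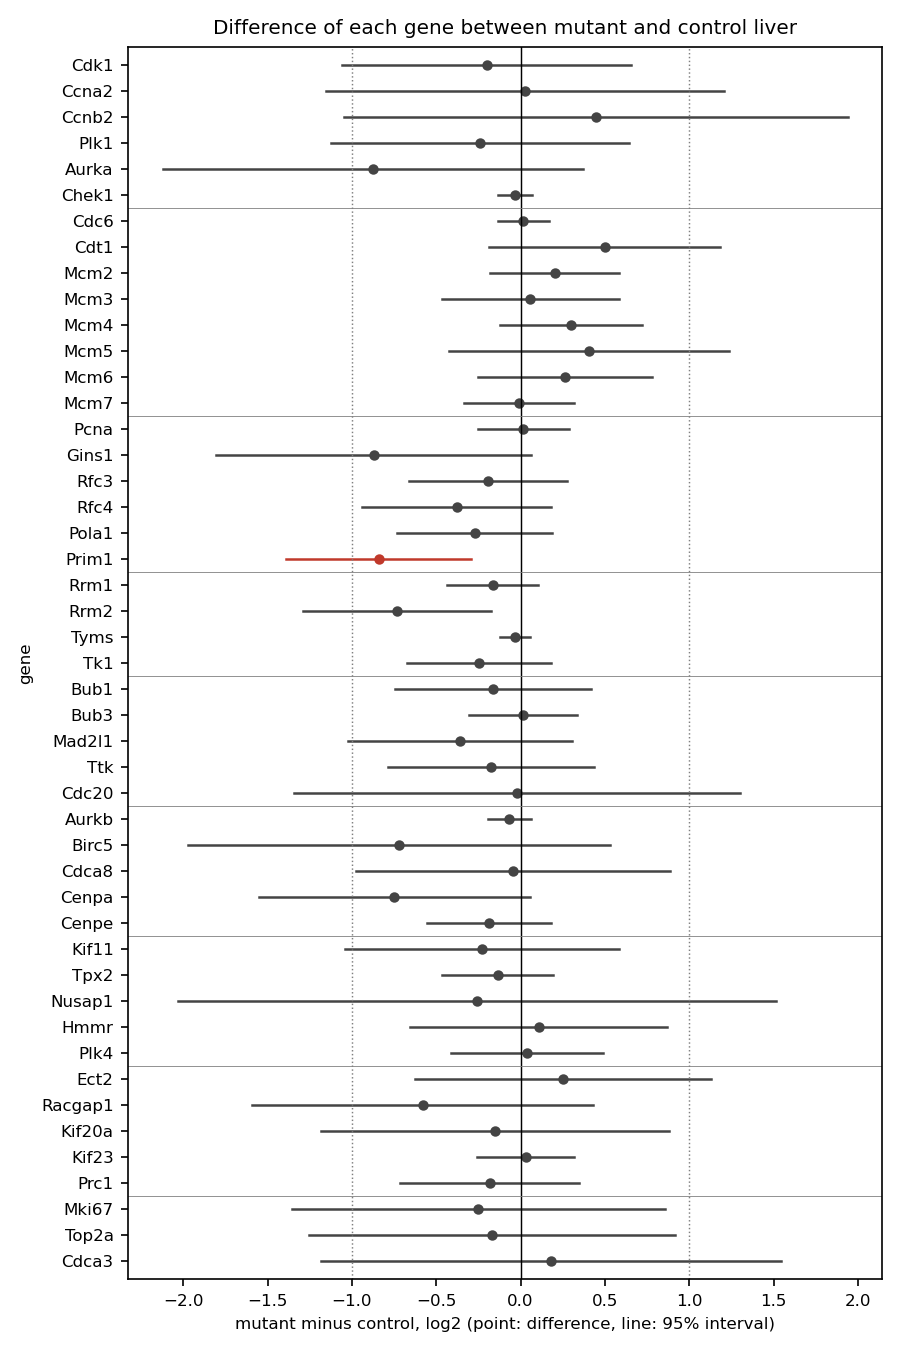
Mutant minus control difference of each of the 47 genes on the log2 scale, with its 95% interval from limma, ordered by role. Prim1 (red) passed the test at -0.84, and the intervals of the other 46 genes are wide, from -2.12 at the low end of Aurka to 1.94 at the high end of Ccnb2.

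Mki67, which encodes the Ki-67 protein of the surface of mitotic chromosomes and is the usual marker of cycling cells, showed the spread between animals. In control livers 1 to 5 it read 5.81, 7.75, 6.73, 7.90 and 8.41 log2 units. In mutant livers 1 to 5 it read 7.77, 6.76, 7.07, 6.27 and 7.48. The lowest and the highest value were both from control livers, and all 5 mutant livers lay between them. The controls spanned 2.60 log2 units and the group means differed by -0.25 (SE 0.49, 95% interval -1.36 to 0.85, adjusted p = 0.782). Top2a, the topoisomerase that untangles chromosomes before they separate, read 2.88, 5.00, 4.41, 5.47 and 5.33 in the controls and 5.18, 4.05, 4.27, 3.95 and 4.79 in the mutants. Cdca3, an activator of mitotic entry, read 4.99, 7.26, 6.06, 7.37 and 8.41, and 7.59, 6.62, 7.40, 6.02 and 7.37. In both genes control 1 was the lowest of all 10 livers, and the mutant values lay inside the control range.

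The same livers were low or high for most members. Control 1 was the lowest control for 33 of the 47 genes (70.2%), against 25.3% of all genes, and control 5 was the highest control for 26 (55.3%), against 24.5%. Mutant 4 was the lowest mutant for 35 (74.5%), against 19.3%, and mutant 1 was the highest for 28 (59.6%), against 12.1%. Taking each gene relative to its control mean, the median member stood at -0.51 in control 1, 0.16 in control 2, -0.15 in control 3, 0.11 in control 4 and 0.39 in control 5. It stood at 0.15, -0.19, -0.11, -0.52 and 0.00 in mutants 1 to 5. Control 1 and mutant 4 thus had nearly equal low medians, while control 5 had the highest and mutant 1 came near control 2. Over all genes the same medians ran only from -0.04 to 0.03. The median difference of the members was -0.28 without control 1 and 0.00 without control 5, so its size rested on which control livers were compared.

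**Figure D2:**
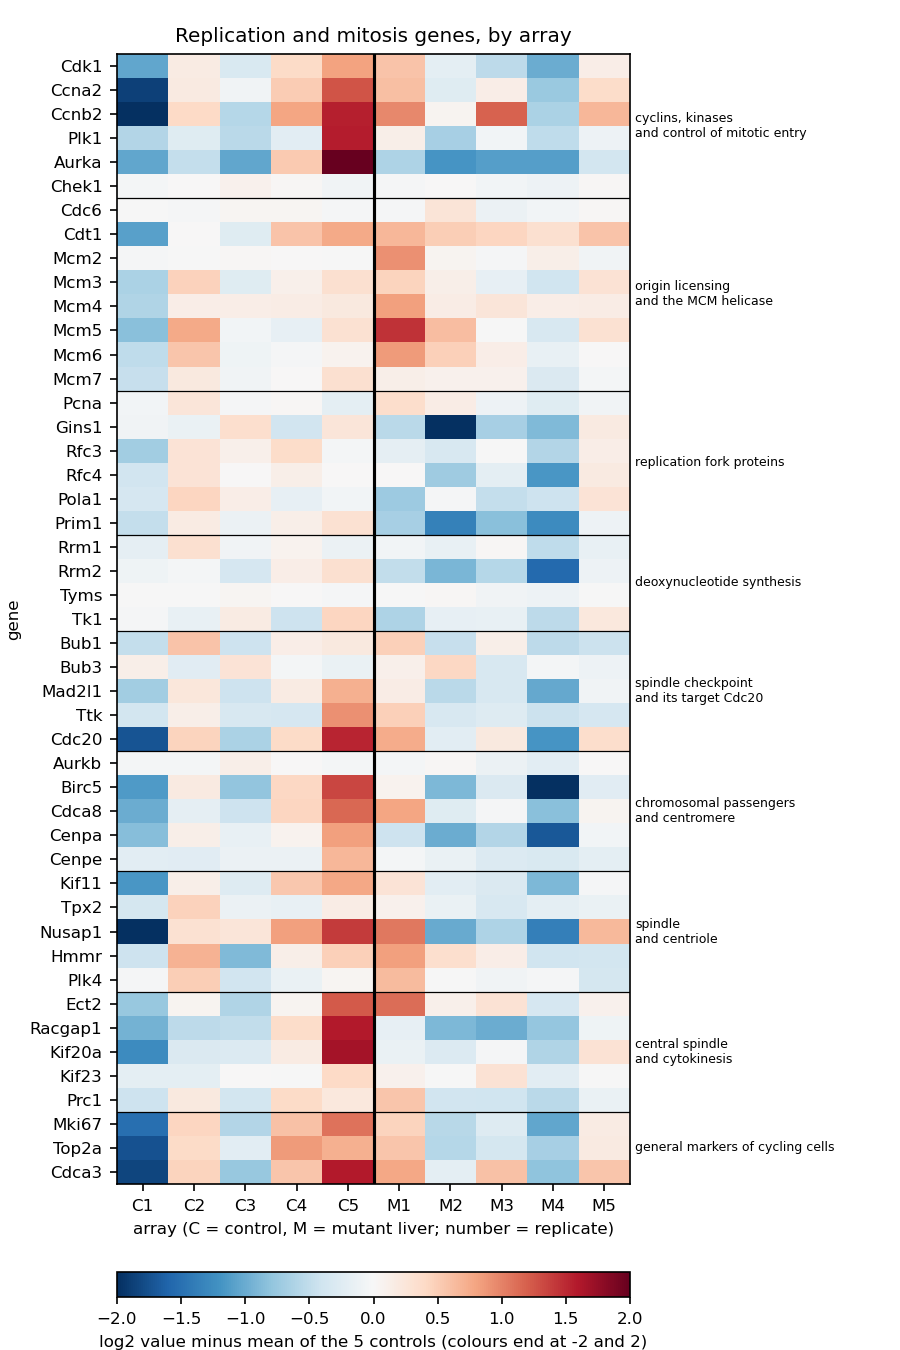
Level of each of the 47 genes (rows, by role) on each of the 10 arrays (columns, 5 control and 5 mutant livers), as log2 value minus the mean of the controls, with colours ending at -2 and 2. Control 1 and mutant 4 are low and control 5 is high across most rows, with medians of -0.51, -0.52 and 0.39, and the mutant columns form no block of their own.

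Among the cyclins and kinases of mitotic entry, 0 of 6 measured genes passed the test, and the median difference was -0.12. Cdk1, the kinase that starts mitosis, read 6.33, 7.53, 7.06, 7.74 and 8.17 in control livers and 7.93, 7.18, 6.84, 6.37 and 7.50 in mutant livers. Ccna2, cyclin A2, read 5.21, 7.26, 7.01, 7.59 and 8.34 in controls and 7.69, 6.84, 7.21, 6.34 and 7.45 in mutants. In each gene every mutant value lay within the control range. Their differences were -0.20 (SE 0.38) and 0.02 (SE 0.53). Ccnb2, cyclin B2, read 3.84, 6.40, 5.43, 6.80 and 7.57 in controls and 6.98, 6.06, 7.19, 5.37 and 6.67 in mutants, a difference of 0.45 (SE 0.67). Aurka, a kinase of spindle poles, had the most negative difference of all members, -0.88 (SE 0.55, adjusted p = 0.302). Its values were 2.52, 3.09, 2.51, 4.09 and 5.58 in controls and 2.94, 2.37, 2.45, 2.46 and 3.18 in mutants. Only controls 4 and 5 stood above all mutants, and the mean over all arrays was below 3.60. Plk1, which acts with Aurka at mitotic entry, had a control 5 value of 4.89 with the other 9 livers between 2.65 and 3.44, below 3.60. Chek1, the kinase of the DNA damage checkpoint, stayed within 0.19 log2 units over all 10 arrays at a level near 3.17, so its probe set gave almost no variation to compare.

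Of the 8 genes of origin licensing and the Mcm helicase, 7 had a positive difference and 0 passed the test, with a median of 0.23. Mcm5 read 7.41, 9.0, 8.18, 8.09 and 8.55 in control livers and 9.69, 8.87, 8.23, 7.92 and 8.55 in mutant livers, a difference of 0.40 (SE 0.37, 95% interval -0.43 to 1.24). Mcm6 read 8.23, 9.29, 8.64, 8.72 and 8.81 in controls and 9.59, 9.21, 8.87, 8.59 and 8.74 in mutants, a difference of 0.26 (SE 0.23). In these subunits of the same ring, mutant 1 was the highest and control 1 the lowest of all 10 livers. In Mcm4, control 1 read 6.38 and mutant 1 read 7.81, and the other 8 livers lay between 7.12 and 7.23. Mcm2 read 4.92 in mutant 1 and 3.93 to 4.12 in the other 9 livers. Mcm3 and Mcm7 differed by 0.06 (SE 0.23) and -0.01 (SE 0.14) between the groups. Cdt1, the loading factor of the helicase, had the most positive difference of the members, 0.50 (SE 0.31, adjusted p = 0.286), with 6.16, 7.24, 6.99, 7.80 and 7.99 in controls and 7.90, 7.73, 7.67, 7.56 and 7.81 in mutants. The mutant livers were close together and the controls were spread around them. A second probe set of Cdt1 gave -0.19, so the sign of its difference rested on the probe set. Cdc6, the other loading factor, stayed within 0.37 log2 units over all arrays, at levels near 2.92.

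Prim1 belongs to the replication fork group, in which 5 of 6 genes had a negative difference, 1 was called lower and the median was -0.32. Prim1 read 6.57, 7.21, 6.93, 7.17 and 7.35 in control livers and 6.37, 5.70, 6.21, 5.79 and 6.95 in mutant livers. All mutants except mutant 5 were below every control, and mutant 5 lay inside the control range. The means were 7.05 ± 0.31 and 6.20 ± 0.50 (SD, n = 5 each), a difference of -0.84 (SE 0.24, 95% interval -1.39 to -0.29, adjusted p = 0.0393 in limma). A second probe set gave -0.54. Adjusted over all probe sets, the adjusted p was 0.0524 for the first and 0.0915 for the second. Of the 88 probe sets of the members 0 were called in either direction, against 7.39% of all probe sets in the lower direction. The call on Prim1 was kept when control 1 or mutant 5 was left out and lost when any of the other 8 arrays was, with an adjusted p of up to 0.0890. In those 8 fits its difference was -0.71 to -0.88. Over all genes, 764 to 1029 were called lower in those fits, against 1422 in the reported test. With the replicate number as a block the adjusted p of Prim1 was 0.0589.

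Gins1, a subunit of the complex that joins the helicase to the polymerases, read 6.25, 6.18, 6.65, 5.94 and 6.55 in control livers and 5.77, 3.87, 5.64, 5.42 and 6.50 in mutant livers. As with Prim1, mutants 1 to 4 were below every control and mutant 5 was among the controls. The difference was -0.87 (SE 0.41, adjusted p = 0.169), and mutant 2 alone stood far below the rest. Pcna, the sliding clamp, read 11.04, 11.35, 11.08, 11.12 and 10.90 in controls and 11.45, 11.25, 10.997, 10.85 and 11.03 in mutants. Its groups lay on top of each other, with a difference of 0.02 (SE 0.12, 95% interval -0.26 to 0.29). Rfc3 and Rfc4, subunits of the clamp loader, differed by -0.19 (SE 0.21) and -0.38 (SE 0.25), and Pola1, the polymerase partner of primase, by -0.27 (SE 0.20).

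All 4 genes of deoxynucleotide synthesis had a negative difference, with a median of -0.21, and 0 passed the test. Rrm2, the small subunit of ribonucleotide reductase, which is made mainly in S phase, read 8.72, 8.77, 8.47, 8.94 and 9.13 in control livers and 8.31, 7.88, 8.24, 7.24 and 8.70 in mutant livers. Mutants 1 to 4 were again below every control and mutant 5 was within the control range. The means were 8.81 ± 0.25 and 8.07 ± 0.55 (SD, n = 5 each), a difference of -0.73 (SE 0.25, adjusted p = 0.0653). Its other probe sets gave -0.63 and -0.57. Rrm1, the large subunit, differed by -0.17 (SE 0.12) and Tk1, the thymidine kinase of S phase, by -0.25 (SE 0.19). Tyms, thymidylate synthase, read between 3.0 and 3.14 on all 10 arrays, below 3.60.

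Without mutant 5, an alternative among the planned omissions of each array, the members called lower were Prim1, at -1.03 (adjusted p = 0.00535), and Rrm2, at -0.89 (adjusted p = 0.0199), and 0 were called higher. That is 2 of 47, against 17.5% of all genes called lower and 11.1% called higher without that array. Groups that did not overlap were then found for 3 members, Prim1, Rrm2 and Gins1, each lower, and for 0 in the higher direction, against 16.1% and 9.64% of all genes. Gins1 then differed by -1.14 (adjusted p = 0.0528) and Cenpa by -0.92 (adjusted p = 0.0878). Mutant 5 lay within the range of the controls for 46 of the 47 members and was the highest mutant for 12. These genes were singled out after their values had been seen.

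**Figure D3:**
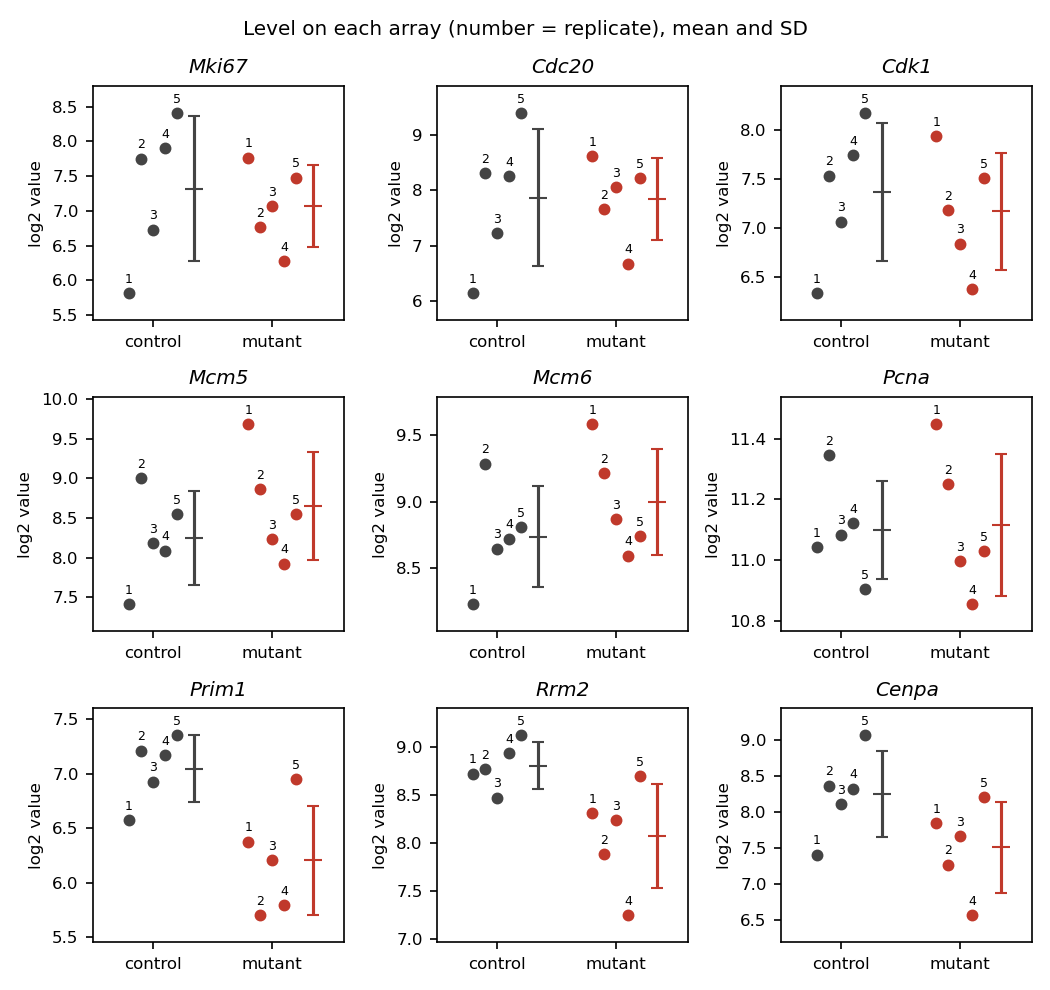
Log2 level of 9 genes on each of the 10 arrays (points), with the mean and SD of 5 control and 5 mutant livers. Mki67, Cdc20 and Cdk1 spread widely within both groups, while for Prim1 and Rrm2 mutants 1 to 4 lie below every control and mutant 5 lies among them.

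For the spindle checkpoint, which holds back separation of chromosomes, and its target Cdc20, 0 of 5 genes passed the test and the median difference was -0.16. Cdc20 read 6.14, 8.31, 7.23, 8.25 and 9.39 in control livers and 8.61, 7.66, 8.06, 6.68 and 8.22 in mutant livers. The controls spanned 3.25 log2 units and held every mutant value. The difference was -0.02 (SE 0.59, 95% interval -1.34 to 1.30). Mad2l1, which binds Cdc20 while chromosomes are unattached, differed by -0.36 (SE 0.30). Bub1 and Ttk, kinases of the checkpoint, differed by -0.16 (SE 0.26) and -0.18 (SE 0.27). Bub3, their partner at the kinetochore, varied little and in another order of livers. It read 9.34, 8.99, 9.49, 9.18 and 9.09 in controls and 9.32, 9.64, 8.90, 9.18 and 9.12 in mutants, a difference of 0.01 (SE 0.14).

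The 5 genes of the chromosomal passengers and the centromere all had a negative difference, with a median of -0.19, and 0 passed the test. Cenpa, the histone variant that marks centromeres, read 7.40, 8.37, 8.11, 8.33 and 9.07 in control livers and 7.84, 7.26, 7.66, 6.56 and 8.21 in mutant livers. The groups overlapped, with mutants 2 and 4 below all controls, and the difference was -0.75 (SE 0.36, adjusted p = 0.171). A second, dim probe set of Cenpa gave 0.00. Birc5, survivin, differed by -0.72 (SE 0.56), with a low value of 4.95 in mutant 4 and a high one of 8.56 in control 5. Cdca8, borealin, differed by -0.05 (SE 0.41), and Cenpe, a kinetochore motor, by -0.19 (SE 0.16). Aurkb, the kinase of the passenger complex, stayed within 0.32 log2 units over all 10 arrays.

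Of the 5 spindle and centriole genes and the 5 genes of the central spindle and cytokinesis, 0 passed the test, with medians of -0.14 and -0.15. Nusap1, which bundles spindle microtubules, had the widest range of any member. It read 2.60, 5.66, 5.60, 6.17 and 6.75 in control livers and 6.40, 4.35, 4.73, 3.98 and 6.0 in mutant livers, a difference of -0.26 (SE 0.79). Control 1 was far below all the others. Kif11, the motor that pushes spindle poles apart, read 4.70, 5.99, 5.61, 6.40 and 6.64 in controls and 6.15, 5.66, 5.57, 4.98 and 5.84 in mutants, a difference of -0.23 (SE 0.36). All mutant values lay inside the control range. Its other probe sets gave 0.58 and -0.17, but their means of 3.45 and 2.55 were below 3.60. Its direction was thus not settled. Hmmr differed by 0.11 on its brightest probe set and by -0.46 to -0.01 on the other 4. Tpx2, which activates Aurka on the spindle, differed by -0.14 (SE 0.15) and Plk4, the kinase of centriole duplication, by 0.04 (SE 0.20). Among the genes of cytokinesis, the differences were 0.25 (SE 0.39) for Ect2, which activates RhoA, -0.58 (SE 0.45) for its partner Racgap1, and -0.18 (SE 0.24) for Prc1, which bundles midzone microtubules. The kinesins Kif20a and Kif23 differed by -0.15 (SE 0.46) and 0.03 (SE 0.13).

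Across the 10 livers most members followed Mki67. Of the 46 others, 44 correlated positively with it, with a median Pearson r of 0.717 against 0.0421 over all genes measured. The closest was Kif11, with r = 0.974 and a Spearman rho of 0.964 over the 10 livers (unadjusted permutation p = 2e-05 and 5e-05). Cdc20 had r = 0.970 and rho = 0.964 (unadjusted permutation p = 3e-05 and 5e-05). The next were Cdk1 at 0.953, Top2a at 0.951, Mad2l1 at 0.948, Cdca3 at 0.946, Ccna2 at 0.943, Nusap1 at 0.927, Cdca8 at 0.922 and Birc5 at 0.902. With adjustment over all 12365 genes, 0 genes passed, and the smallest adjusted p was 0.0927 for Pearson's and 0.136 for Spearman's correlation. At an unadjusted permutation p under 0.05, 28 of the 46 members (60.9%) and 4.84% of all genes had a Pearson correlation. The arrays, the RNA amplification and the whole livers are shared by all these genes, so the correlations describe these 10 livers.

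An r of 0.9 or more was reached by 10 members among 21 genes in all, which is 0.17% of the genes compared. Of the other 11, 7 were on lists of further cell cycle genes: Pbk, Ube2c, Spc25, Shcbp1, Nek2, Stmn1 and H2az1. On none of the lists were Sharpin, Selenoh, Timm17b and Manba. When control 1 and control 5, the livers farthest from the median of Mki67, were left out, the 10 members kept an r of 0.839 to 0.979 over 8 livers, and the median over the members was 0.684. After each group was centred on its own mean, the 10 had r from 0.922 to 0.982 and the median of the members was 0.736. These values describe genes chosen for a high r over the same livers and are no separate test of the relation.

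Grouped by role, and given with no test of the differences between roles, the median r over the 10 livers was 0.949 for Top2a and Cdca3, 0.830 for cyclins and kinases, 0.819 for the passengers and centromere, 0.806 for cytokinesis, 0.747 for the checkpoint and 0.664 for the spindle. It was 0.604 for licensing and the Mcm helicase, 0.446 for fork proteins and 0.364 for deoxynucleotide synthesis. The order of the roles rested in part on controls 1 and 5. Without them the medians were 0.909 for Top2a and Cdca3, 0.802 for the passengers and centromere, 0.773 for cyclins and kinases, 0.767 for the checkpoint and 0.666 for cytokinesis. The fork (0.658), the spindle (0.596) and deoxynucleotide synthesis (0.564) followed, and that of licensing and the Mcm helicase was 0.415. Within the helicase Mcm3 and Mcm7 reached 0.876 and 0.869, while Mcm5 and Mcm6 had 0.606 and 0.534. Pcna had 0.257, Gins1 0.267, Pola1 0.220 and Tk1 0.165. Without controls 1 and 5, Pcna had 0.621, Gins1 0.361, Pola1 0.118 and Tk1 -0.10, so the low value of Pcna rested on those livers. Prim1 and Rrm2, the members with the smallest p between groups, had 0.626 and 0.577 over all livers and 0.695 and 0.835 without those controls. Bub3 had -0.41 and Cdc6 -0.11. Chek1, Tyms, Aurkb and Cdc6, which hardly varied, could not show a strong relation.

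**Figure D4:**
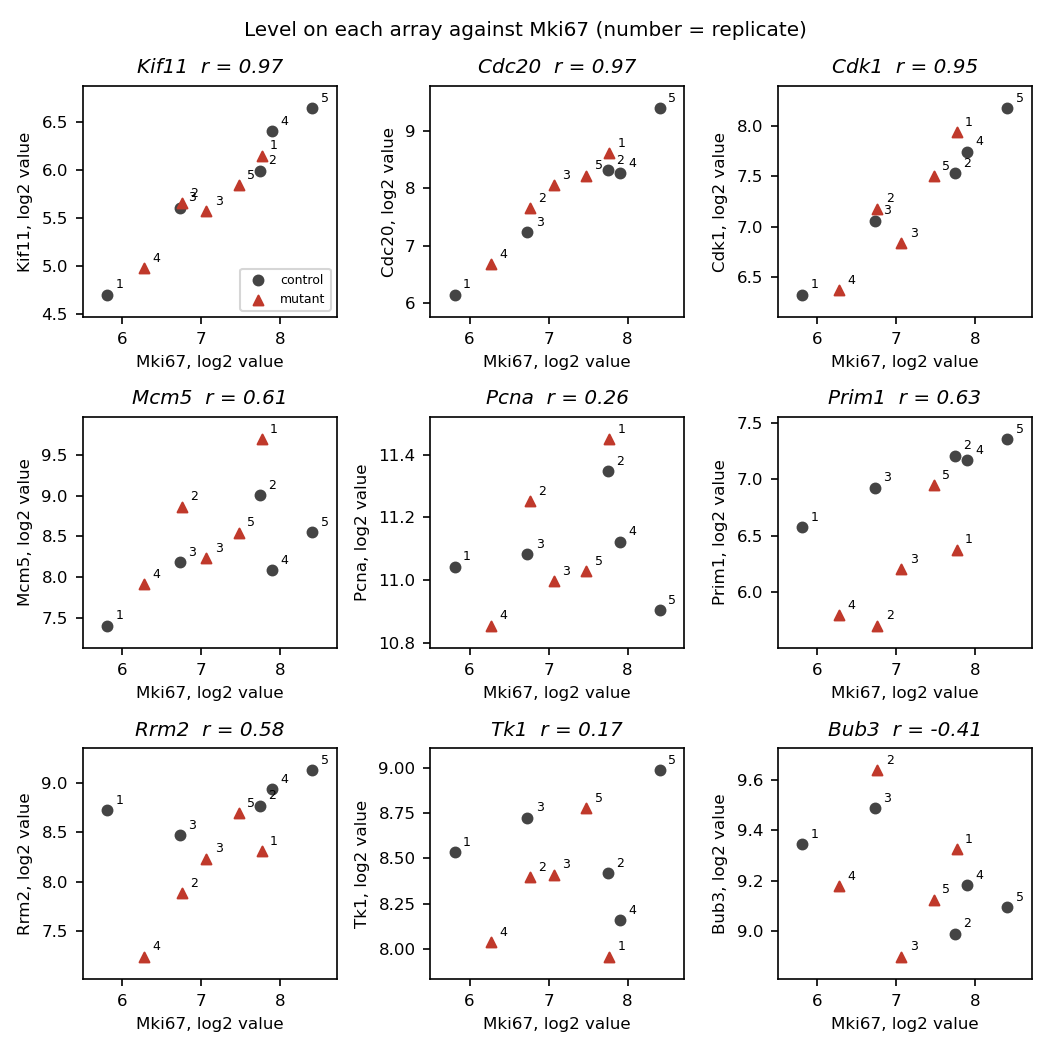
Log2 level of Kif11, Cdc20, Cdk1, Mcm5, Pcna, Prim1, Rrm2, Tk1 and Bub3 against that of Mki67 on each of the 10 arrays, with control and mutant livers marked. Kif11 and Cdc20 lie close to a line (r of 0.974 and 0.970) that holds both groups, while Pcna and Tk1 (0.257 and 0.165) and Bub3 (-0.41) do not.

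The promoters of members that moved together are shown for Kif11, Cdc20 and Cdk1, which followed Mki67 most closely over the 10 livers, and for Mcm6, Prim1 and Rrm2, of the replication group. Over the 10 livers these had lower correlations with it, but without controls 1 and 5 Rrm2 (0.835) lay near Cdca8 (0.839), one of the 10 members above. Each is the 250 bases before the annotated start of the gene, from RefSeq on GRCm38.p6, written 5′ to 3′ on the strand of the gene. Capitals mark 3 kinds of word, each searched on both strands. The first is the box CCAAT. The second is the CHR element, searched as TTTGAA. The third is the E2F type, searched as TTTCCCGC, as TTTCGCGC, as TTTGCCGC and as TTTGGCGC.

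Kif11, chr19:37376132-37376381, plus strand: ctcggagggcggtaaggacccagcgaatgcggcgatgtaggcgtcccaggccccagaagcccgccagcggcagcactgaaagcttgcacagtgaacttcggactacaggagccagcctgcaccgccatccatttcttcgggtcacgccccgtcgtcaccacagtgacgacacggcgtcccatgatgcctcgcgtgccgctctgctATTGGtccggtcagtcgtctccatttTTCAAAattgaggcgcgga
Cdc20, chr4:118437344-118437593, minus strand: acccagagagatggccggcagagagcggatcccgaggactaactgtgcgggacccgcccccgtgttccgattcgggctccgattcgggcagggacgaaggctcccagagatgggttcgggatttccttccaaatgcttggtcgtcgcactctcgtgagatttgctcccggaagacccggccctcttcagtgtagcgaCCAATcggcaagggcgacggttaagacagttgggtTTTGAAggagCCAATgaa
Cdk1, chr10:69352913-69353162, minus strand: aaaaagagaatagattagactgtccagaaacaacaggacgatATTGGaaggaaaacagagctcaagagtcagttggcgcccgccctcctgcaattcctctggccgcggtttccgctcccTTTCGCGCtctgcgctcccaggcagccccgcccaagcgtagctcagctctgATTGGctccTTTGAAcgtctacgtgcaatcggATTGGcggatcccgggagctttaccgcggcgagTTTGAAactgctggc
Mcm6, chr1:128359706-128359955, minus strand: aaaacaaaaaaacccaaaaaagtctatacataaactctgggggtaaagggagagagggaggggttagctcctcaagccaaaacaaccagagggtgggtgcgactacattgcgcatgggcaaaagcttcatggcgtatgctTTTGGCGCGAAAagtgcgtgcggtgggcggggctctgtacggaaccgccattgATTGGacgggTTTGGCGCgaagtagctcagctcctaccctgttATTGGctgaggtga
Prim1, chr10:128014965-128015214, plus strand: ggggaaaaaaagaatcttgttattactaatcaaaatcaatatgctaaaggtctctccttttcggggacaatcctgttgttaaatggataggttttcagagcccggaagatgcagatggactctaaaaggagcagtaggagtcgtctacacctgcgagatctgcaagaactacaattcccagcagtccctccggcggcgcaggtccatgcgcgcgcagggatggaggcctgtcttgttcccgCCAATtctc
Rrm2, chr12:24708004-24708253, plus strand: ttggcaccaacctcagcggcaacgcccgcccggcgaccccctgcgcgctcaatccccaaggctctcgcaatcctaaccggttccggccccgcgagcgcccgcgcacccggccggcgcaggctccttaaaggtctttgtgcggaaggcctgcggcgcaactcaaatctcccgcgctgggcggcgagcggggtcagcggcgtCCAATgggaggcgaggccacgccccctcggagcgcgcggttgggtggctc

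In the Kif11 promoter, a CCAAT word lay 45 bases before the start and a TTTGAA word 19 bases before it, both on the opposite strand. Cdc20 had CCAAT at 53 and 8 bases before the start and TTTGAA at 18. Cdk1 had CCAAT words at 208, 80 and 48 bases, TTTGAA at 71 and 15, and an E2F-type word at 131. In these 3 promoters a TTTGAA word thus lay 15 to 19 bases before the start, and a CCAAT word lay further upstream, at 45 to 53 bases. The Mcm6 promoter held no TTTGAA, with E2F-type words at 110, 106 and 47 bases before the start, the first pair overlapping on opposite strands, and CCAAT words at 57 and 14. Prim1 and Rrm2 each held only a CCAAT word, at 9 and at 50 bases before the start. A word in a promoter is a description of its letters and not a site shown to be bound.

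Of the 47 members, 41 had a promoter in the table, as did 10011 of all measured genes. CCAAT was present in 31 of the 41 (75.6%), against 40.2% of all genes, in 20 of the 25 genes of mitosis (80.0%) and in 11 of the 16 of replication (68.8%). TTTGAA was present in 10 (24.4%), against 13.3%, and 9 of these were among the genes of mitosis (36.0%) and 1 among those of replication (6.25%). E2F-type words were present in 7 members (17.1%), against 3.76% of all genes, with 6 among the replication genes (37.5%) and 1 among those of mitosis, Cdk1, which also held TTTGAA. The difference between the roles was not tested. The 9 members with TTTGAA other than Mki67 had a median r with Mki67 of 0.885, and the 31 without it 0.681. The 7 with an E2F-type word had 0.606 and the 33 without it 0.741. These medians are given with no test, since the words were chosen after the correlations were known and role and word go together.

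Other genes of the same pathways were measured from lists of known function. Of 39 other DNA replication genes measured, 3 were higher, 3 were lower and 33 did not pass, with a median difference of -0.09. Over all genes 8.62% were higher and 11.5% lower, so these counts do not exceed the background. An unadjusted p under 0.05 in limma was reached by 13 of the 39. The share of all genes at that level is not given here, but it includes the 8.62% called higher and the 11.5% called lower. The count of 13 is thus not read as a result about the list. Mcm10, which helps to activate the loaded helicase, had the largest difference, -1.83 (SE 0.51, adjusted p = 0.0355). It read 10.19, 9.38, 10.03, 10.70 and 9.74 in control livers and 9.11, 6.54, 8.53, 7.49 and 9.23 in mutant livers. All mutants were below all controls, and mutants 2 and 4 were the lowest. Its call was lost when any of 7 of the 10 arrays was left out, with an adjusted p of up to 0.0829. Gins4, partner of Gins1, and Rfc2, of the clamp loader, were lower by -0.72 (adjusted p = 0.0424) and -0.91 (adjusted p = 0.0423), and both were named after their values were seen. The call on Gins4 was kept only when mutant 5 was left out and the call on Rfc2 only when control 1 or mutant 5 was, among the omissions of each array, and both were lost with the Y-linked term. Orc2 and Orc3, subunits of the complex that marks origins, were higher by 0.55 (adjusted p = 0.00997) and 0.42 (adjusted p = 0.0311). Both calls were lost when the mean of all probe sets of the gene was used. Pold3, a subunit of polymerase delta, was higher by 0.64 (adjusted p = 0.0333), and its call was lost without any of 8 of the 10 arrays. Its other probe sets gave 0.32 and 1.11. Adjusted over all probe sets in limma, the adjusted p was 0.0438 for the first, 0.0168 for the second and 0.0129 for the third.

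The counts of the next lists are also read against the 8.62% of all genes called higher and the 11.5% called lower. Of 59 other mitosis genes measured, 0 were higher and 1 was lower, with a median of -0.08. An unadjusted p under 0.05 was reached by 6 of them, and the share of all genes at that level is not given here. The lower gene was Fbxo5, an inhibitor of the ligase that Cdc20 activates, which read 5.14, 5.16, 5.02, 4.94 and 5.08 in control livers and 4.84, 4.63, 4.77, 4.62 and 4.73 in mutant livers. All mutants were below all controls by a small step, and the difference was -0.35 (SE 0.06, adjusted p = 0.00901), called in all 20 alternatives. Among 22 genes of transcriptional control 0 were higher and 1 was lower, Tfdp1, the dimer partner of E2F factors, at -0.34 (adjusted p = 0.0400), with a median of 0.15 over the list. Its call was lost without any of 7 of the 10 arrays. Of 11 chromatin proteins of cycling cells 0 were called by limma and 2 had an unadjusted p under 0.05. The smallest p were those of Anp32e, at 0.27 (adjusted p = 0.0549), and Ran, at -0.26 (adjusted p = 0.122). Of 6 inhibitors of cyclin-dependent kinases, 1 was called, Cdkn1c, which encodes p57 and holds cells in G1. It read 6.08, 6.11, 6.10, 5.88 and 6.07 in control livers and 8.18, 9.22, 8.49, 8.43 and 7.10 in mutant livers. Every mutant was above every control, with mutant 5 the nearest to them, and the difference was 2.24 (SE 0.32, adjusted p = 0.00617), called in all 20 alternatives. In the mutant livers this inhibitor was thus at a higher level. Mki67, Cdk1, Ccna2 and Cdc20 stayed within the range of the controls, but control 1 alone set its lower end. For Mki67, control 1 read 5.81, the next control read 6.73 and mutant 4 read 6.27. For these genes the limma intervals of the difference reached down to -1.36, -1.06, -1.15 and -1.34. A decrease of 1 log2 unit was thus within the error. In Prim1, Rrm2, Gins1, Cenpa and Birc5, among others, at least 1 mutant was below every control. In Mcm4, Mcm5, Mcm6, Pcna, Hmmr and Plk4, among others, at least 1 mutant was above every control. Such single livers are no test of a difference, and the share of all genes with them is not given here. A relation of Cdkn1c to the dividing-cell genes was not tested.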

How the data were processed

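Hepatic RNA of 10 mice (5 control, 5 mutant; 1 array each) was amplified from 100 ng of total RNA and labelled with biotin, per the labels' protocols. The authors deposited log2 values per probe set; the log base was read from their range (0.27 to 16.7), and the sources used here do not say how background was corrected or how values were summarised and normalized. Of 25995 probe sets, 37 controls were left out, 21613 carried 1 symbol, 638 several and 3707 none. The probe set with the highest mean stood for each gene. Symbols were checked by gene identifier against RefSeq (GRCm38.p6): 0 changed and 56 genes had no match.

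Differences are mutant minus control, by lmFit and eBayes of limma 3.58.1 (R 4.3.3), two-sided; p-values were adjusted by Benjamini-Hochberg across the 12366 genes and called under 0.05. Groups and replicate numbers came from the sample titles. The labels name no litter, so p-values reflect only how these livers vary, and the number of arrays limits the precision. Same-numbered arrays did not deviate together (correlations of -0.183 to 0.0876), so the main model had no block. Correlations with Mki67 used 100000 permutations (scipy 1.17.1), two-sided, adjusted over 12365 genes. The scripts were tested on simulated data.

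The members and lists were chosen with earlier results of these data known. Any member could be named; of the other pathway lists, up to 4 called genes with the smallest p, or 2 if none was called. Alternatives were other scalings, a filter on dim genes, other probe set rules, other variance models, array weights, the replicate number as a block, Y-linked signal (present in 3 livers of each group) as a term, and each array left out. Marker lists covered hepatocytes, Kupffer, stellate, endothelial, bile duct, erythroid, neutrophil, B, and T and NK cells. Of bile duct markers 1 of 8 was called, and 0 of 3 for B cells, 0 of 4 for T and NK cells and 0 of 9 for hepatocytes.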

Additional observations from a re-analysis of the deposited data

Results flagged for a closer look

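In 7 of 94 groups of 5 livers, 1 liver stood apart from the rest by Dixon's criterion, and chance alone gives about 1 in 20. The groups come from the same livers and many of the genes varied together, so that share is only a rough guide. In control 5, Plk1 read 4.89 log2 units with the next control at 3.11, and Cenpe read 4.06 with the next at 3.28. The mean of both genes over all arrays was below 3.60, the 25th percentile of all values. In mutant 1, Mcm2 read 4.92 with the next mutant at 4.12, Mcm4 read 7.81 with the next at 7.23, and Ttk read 4.49 with the next at 3.76. In control 1, Mcm4 read 6.38 with the next control above it at 7.12, and Nusap1 read 2.60 with the next at 5.60. Mutant 4, the lowest mutant for 35 of the 47 members, stood apart by this criterion in none of them.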

How the results depend on the processing

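Over the 20 alternatives, 0 members were called higher in any. The count of members called lower was 1 in the reported test and 2 with dim genes left out and with array weights, where Rrm2 joined Prim1. It was 0 with the Y-linked term, 0 with the replicate number as a block, and 0 to 2 with each array left out. The median difference over the members was between -0.28 and 0.00 and was not positive in any setting. Of 934 fits of a member in an alternative, 918 kept the call or moved by less than the spread, 10 lost the call on Prim1, 3 gained one for Rrm2, and 3, of Chek1 and Mcm7, moved with the choice of probe set. Of the members not called, 21 changed sign in at least 1 setting. Among the other replication genes, the 3 called higher became 1 with the mean of probe sets and 1 with the probe set of largest SD, and 1 to 3 with each array left out. The 3 called lower became 5 with the array median subtracted, 5 with dim genes left out, 6 with array weights and 0 to 9 with each array left out. With the replicate block it was 1. Among the other mitosis genes, 1 was higher with array weights (0 to 1 with each array left out), and 2 were lower with the array median subtracted, 2 with dim genes left out, 2 with array weights and 1 to 3 with each array left out. The cause of these changes was not tested. The replicate block changed no other of these calls, apart from those on Orc3, Gins4, Rfc2 and Tfdp1, which were lost. Over all genes, counts rose from 1066 higher and 1422 lower to 1371 and 2160 without mutant 5 and fell to 627 and 764 without mutant 4. They also fell when any other array was left out, to 696 to 829 higher and 782 to 1029 lower.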
